A study of Mus musculus with 18 samples.

Results

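CLK occupancy at CLK:BMAL1 sites in mouse liver was measured at ZT06, 6 h after lights on. CLK ChIP of sonicated chromatin was set against sonicated input with the same mouse number. All libraries labelled as sonicated chromatin at ZT06 were taken, which gives 6 of the 18 libraries of the series. The first group holds 3 libraries immunoprecipitated with a goat polyclonal antibody against CLK, from mice 28, 29 and 30. The second holds the 3 input libraries with the same mouse numbers, made without antibody. All animals were wild-type C57BL/6 mice aged 3 to 6 months, kept for 2 weeks or more in a cycle of 12 h light and 12 h dark. Whole liver was crosslinked with 1% formaldehyde for 10 min, so nuclei of every liver cell type were pooled, and the sequenced inserts were about 150 to 300 bp long. The deposited profile gives, for each library, the mean signal at successive positions across 3 kb around the sites, once for all 3216 sites and once for the top 400. No value per site was analysed here, so each number below describes an average site. No source used here states how the top 400 sites were picked.

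CLK (also written CLOCK) and BMAL1 are bHLH-PAS proteins that bind DNA as a pair and switch on genes with an E-box. Their targets include the Per and Cry genes, whose proteins repress CLK:BMAL1 and so close the feedback loop of the clock. In liver the same pair drives genes of daily metabolism, and its binding is known to be strongest in the light phase. In ChIP, fragments bound by the protein are enriched over the input, which records how well each stretch of chromatin is recovered without antibody.

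The sites lie throughout the genome, and the site table names 3 first. In mm9 coordinates, Koike_CLKBMAL1_P0001 spans chromosome 7 from 52960041 to 52960760 and is classed as a transcription start site (TSS). Koike_CLKBMAL1_P0002 spans chromosome 11 from 68908211 to 68908501, and Koike_CLKBMAL1_P0003 chromosome 11 from 98644571 to 98645021. Both are classed as intergenic within 10 kb of a gene. Of all 3217 sites in the table, 583 are classed as TSS and 1412 as intron. The median peak is 309 bp wide.

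The E-box that CLK:BMAL1 is known to read is CACGTG, a palindrome that reads alike on both strands. Its setting is shown for promoters of 3 clock repressor genes, as RefSeq gives them in build GRCm38.p6. Per1 and Cry1 encode core repressors of CLK:BMAL1, and Ciart encodes another repressor of the clock. The windows are written 5′ to 3′ on the strand of the gene, with the E-box in capitals.
Per1: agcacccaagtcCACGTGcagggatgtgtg
Cry1: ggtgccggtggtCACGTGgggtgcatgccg
Ciart, 1: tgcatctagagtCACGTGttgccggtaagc
Ciart, 2: cgcagggggaggCACGTGcagaaccgcacg
Ciart, 3: cgtgcagaaccgCACGTGtctgggaggggg
The Per1 window lies on chromosome 11 from 69098771 to 69098800 and the Cry1 window on chromosome 10 from 85185097 to 85185126. The Ciart windows lie on chromosome 3 between 95882255 and 95882356, and windows 2 and 3 overlap. A promoter here is the stretch from 250 bases before to 50 bases after a gene's start. Of 16 clock genes looked up, 12 had a promoter in the table, and 5 of these held CACGTG (Bhlhe41, Ciart, Cry1, Per1 and Tef). CACGTG stood in 6 of the 14 promoters of the listed genes (42.9%), where a gene with several promoters counts several times. The share was 7.15% among all promoters in the table. The genes were chosen as clock genes to show the E-box and were not a random draw. The shares were not tested against each other and are no evidence of enrichment. The profiles average over sites and the site table uses another build, so these promoters were not tied to single sites.

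CLK ChIP signal stood in a single peak over the midpoint of the sites. The sites are themselves listed as ChIP-seq peaks of CLK:BMAL1, so an excess of CLK ChIP at their midpoint was built into their choice. The values below give its size and extent and are no independent evidence of binding. Averaged over the centre, the 21 positions within 100 bp of the midpoint, CLK ChIP of mice 28, 29 and 30 had a signal of 7.83, 7.64 and 8.89 over all sites, against 4.04, 3.70 and 3.82 in the input. The lowest ChIP library lay above the highest input library, so the groups did not overlap. In the flanks, 1000 bp or more from the midpoint, the order was turned: CLK ChIP had 2.53, 2.50 and 2.69, and the input had 3.13, 2.99 and 3.01. At the top 400 sites the centre reached 17.2, 17.5 and 19.4 in CLK ChIP, against 4.50, 4.13 and 3.98 in the input. There the flanks were alike, at 3.12 ± 0.05 in CLK ChIP and 3.12 ± 0.15 in the input (SD, n = 3). No source used here states how the authors scaled their libraries, so every library was divided by the mean of its own flanks before ChIP and input were compared.

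**Figure D1:**
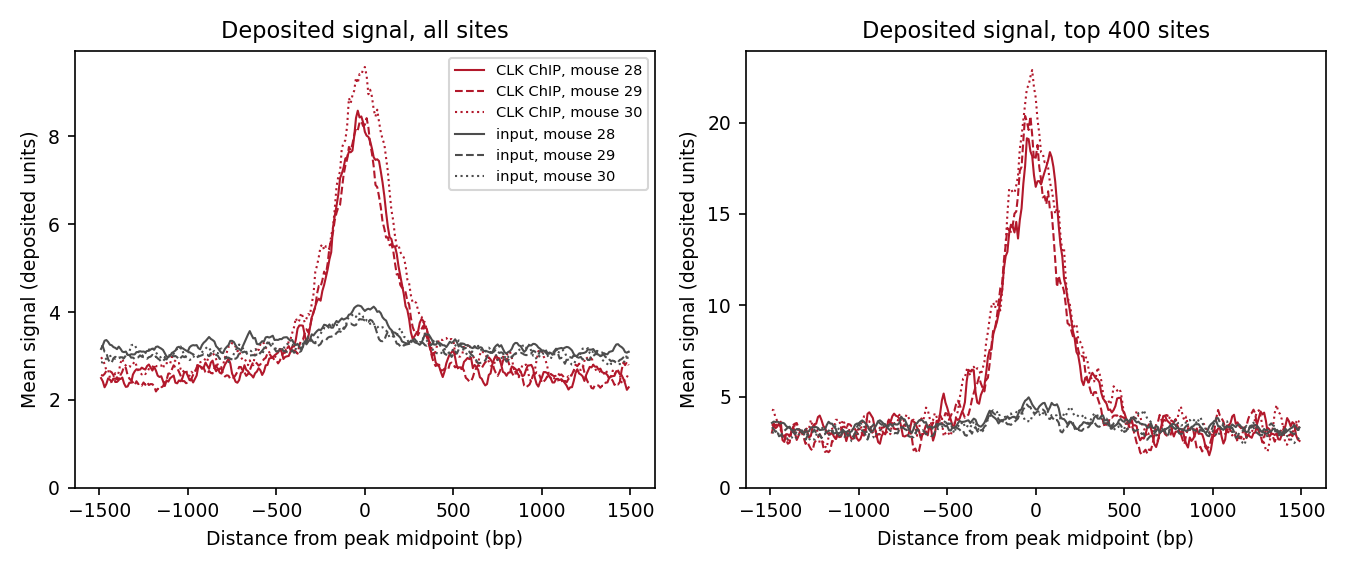
Deposited mean signal (vertical axis, deposited units) against distance from the peak midpoint (bp) at ZT06, for 3 CLK ChIP and 3 input libraries, over all sites (left) and the top 400 sites (right). The ChIP centre lies at 7.64 to 8.89 over all sites, above the input at 3.70 to 4.04, and the ChIP flanks lie below those of the input.

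The input itself was not flat. Its centre stood above its own flanks by 1.29-fold, 1.24-fold and 1.27-fold (mice 28, 29 and 30) over all sites, and by 1.38-fold, 1.32-fold and 1.34-fold at the top 400 sites. The input maximum over all sites lay 30 or 40 bp to the left of the midpoint in the 3 libraries. Position by position, ChIP was therefore divided by the input with the same mouse number.

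Relative to its own input, CLK ChIP at the centre of all sites was enriched 2.39-fold, 2.47-fold and 2.61-fold in mice 28, 29 and 30. The mean log2 enrichment was 1.31 ± 0.04 (SE, n = 3), positive in 3 of 3 pairs. At the top 400 sites the enrichment was 3.98-fold, 4.31-fold and 4.56-fold, a mean log2 of 2.10 ± 0.06 (SE). Mouse 30 was the highest and mouse 28 the lowest in both sets. Flipping the signs of the pairs (exact test, two-sided) gave p = 0.25 for each, which 3 pairs cannot go below, and an adjusted p of 0.25 over 6 tests of single values. The values of the top profile fell on whole multiples of a step per library, the signal of 1 fragment, and by that step 7233 to 9305 ChIP fragments and 13151 to 19360 input fragments covered the midpoint of all sites. Per position of the flanks it was 2225 to 2817 ChIP fragments and 10204 to 15036 input fragments, so the ChIP libraries were the shallower ones. Counting error at the midpoint was 1.04 to 1.18% in CLK ChIP and 0.719 to 0.872% in the input. Intervals of this kind cover counting error only.

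The enrichment fell with distance on both sides. Over all sites ChIP over input was 2.61 ± 0.14 (SD, n = 3) at the midpoint. At 100 bp it was 2.40 ± 0.01 on the left and 2.27 ± 0.14 on the right. At 150 bp it was 2.18 ± 0.03 and 1.96 ± 0.11, and at 300 bp 1.38 ± 0.02 and 1.32 ± 0.06. By 500 bp it had come down to 1.11 ± 0.02 on the left and 1.15 ± 0.04 on the right, and at 1000 bp it was 0.97 ± 0.04 and 1.02 ± 0.11. At the top 400 sites the midpoint stood at 4.51 ± 0.51, the 200 bp points at 2.80 ± 0.35 and 2.36 ± 0.32, and the 500 bp points at 1.12 ± 0.27 and 1.21 ± 0.07.

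The mean width of the peak of ChIP over input was alike in both sets of sites, with no consistent order between them. At 50% of its height the peak of ChIP over input at the top 400 sites was 411, 383 and 306 bp wide in mice 28, 29 and 30. Over all sites it was 389, 371 and 339 bp wide. The mean was 366 bp in both sets, and the spread at the top sites was the larger (SD 54.5 bp). Mouse 30, whose peak was the highest, had the narrowest one in both sets. Of the excess of ChIP over input within 500 bp of the midpoint of the top sites, 46.4 to 49.1% lay within 100 bp and 90.1 to 92.2% within 300 bp. Over all sites these shares were 46.9 to 47.4% and 89.9 to 91.3%.

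CLK ChIP was above input at every central position by limma's test. As the sites are listed as ChIP-seq peaks of CLK:BMAL1, this outcome was built into their choice. On the scale of log2(signal over flanks), 100 positions over all sites, 33.4% of those tested, were higher in CLK ChIP than in input at a Benjamini-Hochberg adjusted p under 0.05, and 0% were lower. The 21 central positions had log2 differences of 1.18 to 1.39 and adjusted p-values up to 5.28e-10 by limma. The 40 positions from 110 to 300 bp were also called. Between 310 and 500 bp, 20 of 20 positions were called on the left and 13 of 20 on the right. The gap-free stretch of called positions ran from 500 bp on the left to 380 bp on the right. Farther out, 6 of 98 positions between 510 and 990 bp were called higher, and in the flanks, which set the scale, 0 of 100 were, where the lowest adjusted p by limma was 0.105. Neighbouring positions share fragments, so a count of positions is the extent of a difference and not a number of separate findings. With 3 libraries per group, limma moderates each variance by those of all positions. Its very small p-values therefore lean on positions that are not independent.

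In the profile of the top 400 sites CLK ChIP was higher than input at 29.8% of positions and lower at 1.67%, with 81 positions in 1 stretch from 430 bp on the left to 370 bp on the right. The 21 central positions had log2 differences of 1.93 to 2.26. The 5 lower positions lay at 1180 bp on the left and at 600, 610, 980 and 990 bp on the right. They were named after their values were seen, and at an adjusted p under 0.01 the count of lower positions by limma was 0. With the mouse number as a replicate block, limma called 31.8% of positions higher and 5.35% lower at the top sites. Without any division by flanks, on log2(signal + 1), CLK ChIP was higher at 22.4% and lower at 50.2% of the positions over all sites. The flanks of CLK ChIP lay below those of the input on that scale. Counted without a test on the signal over flanks, the 3 ChIP libraries lay above the 3 input libraries at 41.1% of positions over all sites. They lay below at 1%. At the top sites these shares were 33.8% and 4.35%. All 21 central positions were among those above in both sets.

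**Figure D2:**
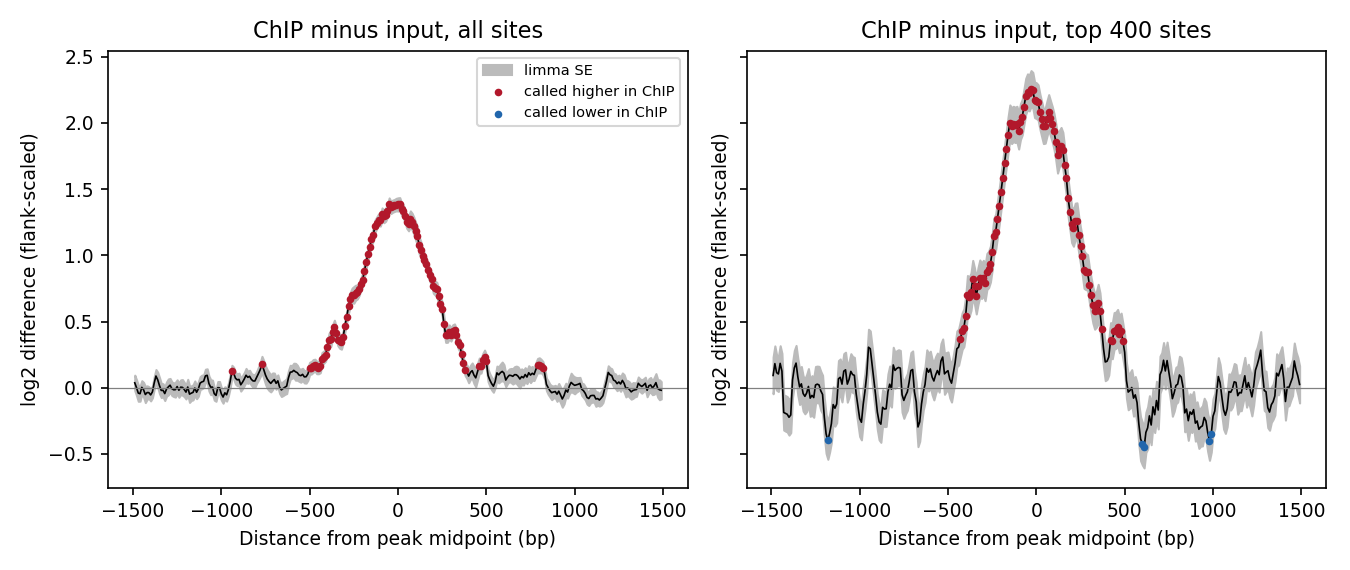
Log2 difference of CLK ChIP minus input at ZT06 (vertical axis, flank-scaled) against distance from the peak midpoint (bp), with limma's standard error in grey. Red points were called higher in ChIP at an adjusted p under 0.05 and blue points lower. The red stretch runs from 500 bp on the left to 380 bp on the right over all sites and from 430 to 370 bp at the top sites.

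The top 400 sites had a higher enrichment than the others, and ChIP was also higher in their flanks. Since how they were picked is not stated, this is a description of the set and no independent evidence of stronger binding. The top sites were taken to be part of all sites, which leaves 2816 remaining sites. At these the centre of ChIP over input was 2.08-fold, 2.11-fold and 2.24-fold in mice 28, 29 and 30. The top sites exceeded the set of all sites by a log2 difference of 0.78 ± 0.02 (SE) and the remaining sites by 1.00 ± 0.03, in 3 of 3 pairs (exact sign-flip test, two-sided, p = 0.25). Making up 12.4% of the sites, they held 35.4% of the excess of ChIP over input within 500 bp in mouse 28, 35.5% in mouse 29 and 33.2% in mouse 30.

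Dividing by flanks takes out whatever surplus the flanks hold. Within a library, the ratio of top to remaining sites needs no scaling factor. In the flanks this ratio was 1.28, 1.26 and 1.21 in CLK ChIP of mice 28, 29 and 30, against 1.05, 1.05 and 0.98 in the input. The surplus of CLK ChIP over input in the flanks of the top sites was thus 1.22 ± 0.01-fold (SD, n = 3). At the centre the same ratio was 2.64, 2.79 and 2.62 in CLK ChIP, against 1.13, 1.14 and 1.05 in the input, a surplus of 2.43 ± 0.09-fold. Between 310 and 500 bp the surplus was 1.47 ± 0.04-fold, and between 510 and 990 bp it was 1.12 ± 0.03-fold, lower than in the flanks in each of the 3 pairs. Each surplus was above 1 in 3 of 3 pairs (exact sign-flip test, two-sided, p = 0.25). Of all sites, 94 have the midpoint of another site 1000 to 1500 bp away (2.92%) and 347 have one within 500 bp (10.8%). Their part in the flank level was not tested.

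ChIP over input was slightly higher on the left of the midpoint than on the right in most bands of distance. With 3 pairs no band could pass its exact test, so the test does not decide this. Left and right follow the order of the deposited values, and no source used here states whether sites were turned by strand. From 110 to 200 bp, ChIP over input over all sites was 2.12, 2.14 and 2.08 on the left and 1.93, 1.86 and 2.03 on the right in mice 28, 29 and 30, a log2 difference of 0.13 ± 0.05 (SE). From 210 to 300 bp the difference was 0.11 ± 0.03, and from 310 to 500 bp it was 0.06 ± 0.02. The left was higher in 3 of 3 pairs in these bands. Within 100 bp it was higher in 2 of 3, at 0.06 ± 0.03, and from 510 to 1000 bp in 2 of 3, at 0.004 ± 0.025. At the top sites the left was higher in 3 of 3 pairs from 110 to 200 bp, at 0.21 ± 0.05. It was also higher in 3 of 3 from 510 to 1000 bp, at 0.143 ± 0.007, where mean ChIP over input was 1.02 on the left and 0.92 on the right. In the other bands of the top sites it was higher in 2 of 3. The differences there were 0.12 ± 0.09 within 100 bp, 0.01 ± 0.11 from 210 to 300 bp and 0.08 ± 0.08 from 310 to 500 bp. The exact sign-flip test (two-sided) gave p = 0.25 where 3 pairs agreed in sign, which 3 pairs cannot go below. Its adjusted p in these bands was 0.50 over 10 bands. Over all sites the input leaned the same way, by a mean log2 of 0.05 within 100 bp. From 110 to 200 bp and from 210 to 300 bp it leaned by 0.06. At the top sites from 310 to 500 bp, left minus right was 0.0009 in ChIP alone and -0.08 in the input. At ZT22, in the dark phase, the left was higher over all sites in each pair from 110 to 200 bp. The log2 differences were 0.05, 0.07 and 0.11 in mice 28, 29 and 30. In the other bands at ZT22 the pairs over all sites differed in sign. The lean from 110 to 200 bp was thus not particular to ZT06.

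**Figure D3:**
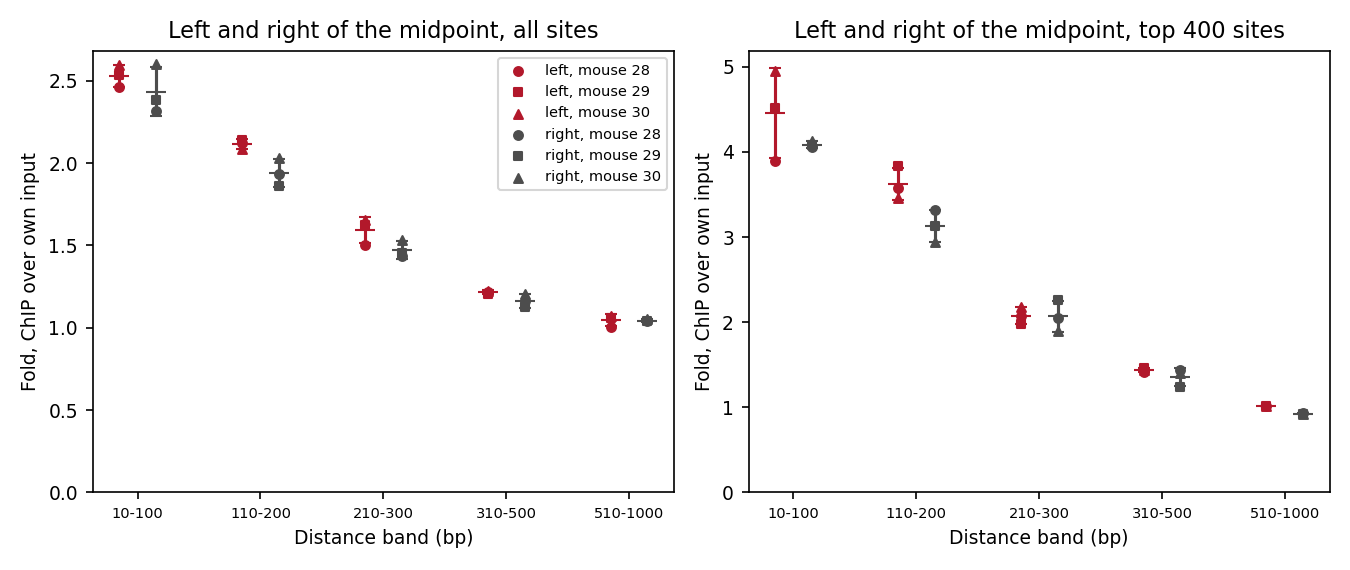
CLK ChIP over own input at ZT06 (vertical axis, fold after flank scaling) in 5 bands of distance from the peak midpoint (bp), left in red and right in grey, for all sites and the top 400 sites. Points are mice 28, 29 and 30, and bars give mean and SD. From 110 to 200 bp the left points lie at 2.08 to 2.14 and the right points at 1.86 to 2.03 over all sites.

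The enrichment over input at ZT06 was larger than at ZT22, a time in the dark phase, in the same kind of chromatin. The mouse numbers 28, 29 and 30 recur at ZT22. Since whole liver was taken, a number cannot mark 1 animal at both times, and times were not paired by number. Over all sites the centre was enriched 2.39 to 2.61-fold at ZT06, against 1.03-fold, 1.01-fold and 1.43-fold in mice 28, 29 and 30 at ZT22. At the remaining sites it was 2.08 to 2.24-fold at ZT06, against 0.97-fold, 1.00-fold and 1.27-fold at ZT22. At the top 400 sites it was 3.98 to 4.56-fold at ZT06, against 1.39-fold, 1.06-fold and 2.43-fold at ZT22. The groups of 3 did not overlap in any of the 3 sets of sites. The pairs at ZT06 lay close together, whereas mouse 30 stood above the other mice at ZT22.

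The log2 difference between the times was 1.12 ± 0.17 (SE) over all sites and 1.48 ± 0.36 at the top sites (exact permutation test, two-sided, p = 0.1, below which 3 against 3 cannot go, and adjusted p = 0.25). With limma, the enrichment was larger at ZT06 at 26.8% of positions over all sites and smaller at 0.334%. At the top sites it was larger at 18.4% and smaller at 0%. All 21 central positions were among them. The stretch of larger enrichment at the top sites ran from 240 bp on the left to 250 bp on the right. Without the libraries numbered 28 at both times, 7 positions (2.34%) were called at the top sites by limma, 5 of them central. The central log2 difference was then 1.47. Depth moved with the libraries at ZT22: 1 fragment was worth 3.08, 0.683 and 8.90 units of signal in CLK ChIP of mice 28, 29 and 30, against 2.86 to 3.89 at ZT06. Its part in the difference was not tested. Each mouse number was also left out in turn at both times. The log2 difference then ranged from 1.04 (without number 29) to 1.25 (without number 30) over all sites. At the top sites it ranged from 1.21 to 1.77. Without only the ZT22 pair of mouse 30 it was 1.29 and 1.82.

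**Figure D4:**
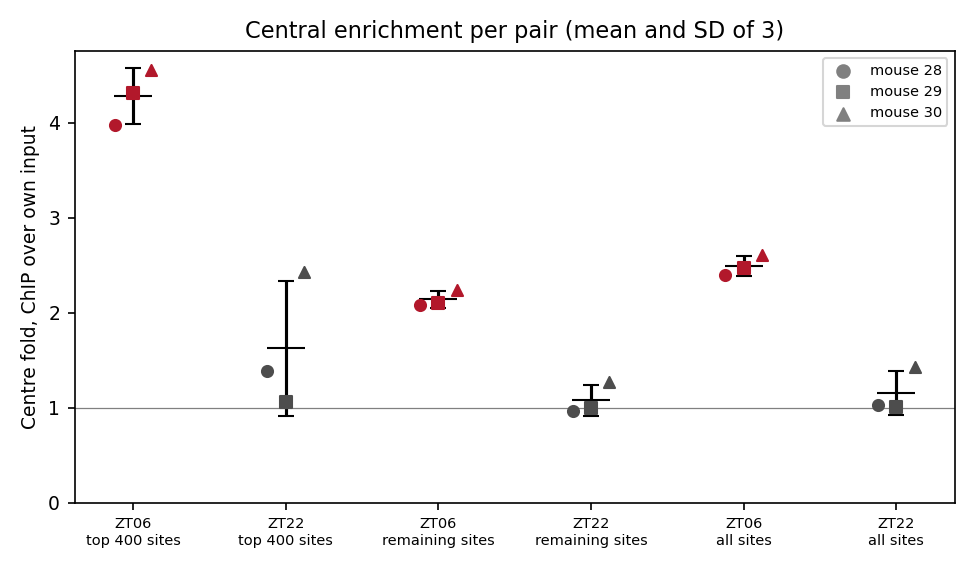
Centre fold of CLK ChIP over own input (vertical axis) at ZT06 and ZT22, for the top 400, the remaining and all sites. Points are the mice numbered 28, 29 and 30 at each time, which are not the same animals across times. Bars give mean and SD, and the grey line marks a fold of 1. At ZT06 the points lie at 3.98 to 4.56 for the top sites and 2.08 to 2.24 for the remaining sites, above every ZT22 point of the same sites.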

How the data were processed

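The deposited profile table gives signal, a mean over sites per position, and no source used here states its scaling between libraries. CASAVA 1.7, Bowtie and build mm9 are named in the submitters' processing notes. The deposited site table gives other values (positions and a class per site). Groups came from titles and libraries from row names. Of the profile rows, 16 match no sample and were not used. Positions were taken as 10 bp apart and centred on the midpoint, which no source states. Depth per library was read from the whole-number steps of the top profile, where 100% of values lay within 0.1 fragment of a whole number.

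Each library was divided by its flank mean. limma 3.58.1 (R 4.3.3) was fitted to log2 values of the 6 libraries, or of 12 for the 2 times, without a mouse block or pseudocount, and adjusted over all positions. It was tested on simulated data. Single values were compared by exact tests in Python 3.11.15. ChIP and input of 1 time share a mouse number and were taken as 1 animal. The same number at the other time was not. Deviations of same-numbered libraries correlated at 0.03 to 0.05 over all sites and 0.12 to 0.45 at the top sites. Named positions follow fixed distances, maxima and ends of called stretches. Sites, measures and gene list were chosen with earlier results of these data known. The left and right bands, the remaining sites, the excess shares and the non-overlap counts were added after the profiles had been seen. The same holds for the alternatives without far positions or without the ZT22 ChIP library or pair of mouse 30.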

Additional observations from a re-analysis of the deposited data

Results flagged for a closer look

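The enrichment of CLK ChIP over input differed between ZT06 and ZT22 by limma's test of the difference itself. Over all sites 27.1% of positions were called (26.8% larger and 0.334% smaller at ZT06), and at the top 400 sites 18.4% were, all larger at ZT06. No rule for single outlying libraries was applied to groups of 3. The ZT22 ChIP library or pair of mouse 30 was left out only in alternatives added after its values had been seen.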

How the results depend on the processing

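The central enrichment over input, its difference between site sets and its difference between times kept their direction with flanks taken from 1200 bp or from 500 to 1000 bp, with a centre of 50 or 200 bp and without each mouse. Over all sites the central log2 enrichment ranged from 1.18 with the wide centre to 1.35 with the narrow one. At the top sites it ranged from 1.95 with the wide centre to 2.15 without mouse 28, and was 2.14 with the narrow centre. Unpaired, without a replicate block, both kept their values of 1.31 and 2.10 with an exact permutation p of 0.1. The share of positions called over all sites, 33.4%, became 72.6% on log2(signal + 1) without flanks, 22.4% higher and 50.2% lower, as that scale keeps the lower ChIP flanks. Where positions from 1000 bp outwards were left out of the test, an alternative added later, the shares were 52.8% over all sites and 48.2% at the top sites, and 40.7% between times over all sites, as fewer positions were tested. With the replicate block the share for ChIP over input was 33.1% over all sites, and at the top sites 37.1% in place of 31.4%. For the difference between times the blocked shares were 25.8% over all sites and 19.7% at the top sites, so the block moved no total share by over 1.5 times. It raised the share of lower positions for ChIP over input at the top sites to 5.35%, in place of 1.67%. Without mouse 28, 29 or 30 the shares ranged from 28.1 to 33.8% and 27.8 to 28.4% for ChIP over input. Between times they ranged from 19.1 to 30.8% and from 2.34 to 26.4%, the highest without only the ZT22 ChIP library of mouse 30. The low share of 2.34% came without number 28 at both times, with a central log2 difference of 1.47 in place of 1.48. Fits of the same size without number 29 or 30 called 16.4% and 22.1%, and the cause was not tested. With 3 pairs no exact test could pass, so stability is judged by direction and spread. With flanks of 500 to 1000 bp the top sites held 37.6% of the excess, in place of 34.7%.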
